A study of Mus musculus with 16 samples.

Results

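The 7 genes described here encode the enzymes that write, keep and remove 5-methylcytosine in mouse DNA, namely Dnmt1, Dnmt3a, Dnmt3b, Uhrf1, Tet1, Tet2 and Tet3. They were taken by symbol and were 7 of the 23420 genes in the RNA tables and 7 of the 22269 gene intervals in the ChIP tables, and all 7 passed the filter on low counts in both. The cells were naive CD4+ T cells sorted by flow cytometry and stimulated with plate-bound anti-CD3 and soluble anti-CD28. Ezh2KO cells came from Ezh2 fl/fl.CD4Cre mice, in which Cre under a Cd4 promoter recombines the floxed Ezh2 alleles during T cell development in the thymus, so the deletion precedes the culture. Ezh2fl/fl cells came from mice labelled Ezh2 fl/fl and served as controls. iTreg cultures received rhIL-2 at 200 U/ml and rhTGF-b1 at 5 ng/ml, and Th0 cultures received rhIL-2 at 50 U and no TGF-b1, so the cultures differ in both cytokines. By their titles the iTreg samples were taken on day 5 and the Th0 samples on day 4, although the protocol names a single harvest on day 4. RNA was sequenced from 3 iTreg Ezh2KO, 3 iTreg Ezh2fl/fl, 3 Th0 Ezh2KO and 3 Th0 Ezh2fl/fl samples, and H3K27me3 was profiled by ChIP-seq in 2 Th0 Ezh2KO and 2 Th0 Ezh2fl/fl samples. The design text calls these biological replicates. The ages of the mice are not given in the sources used here.

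DNA methylation in mammals sits mainly on the cytosine of CpG dinucleotides. Dnmt3a and Dnmt3b set it on unmethylated DNA, whereas Dnmt1 copies it to the new strand after replication, guided by Uhrf1, which binds hemimethylated CpG. Tet1, Tet2 and Tet3 are dioxygenases that oxidise 5-methylcytosine, which allows its loss through replication or base excision repair. In CD4 T cells, Dnmt3a is known for restricting cytokine loci to the right lineage, Dnmt1 and Uhrf1 for regulatory T cell number and function, and Tet2 and Tet3 for demethylation of a Foxp3 enhancer. Ezh2 places the repressive H3K27me3 mark on histones as the catalytic subunit of PRC2.

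The RNA libraries held 21910114 to 28443427 counted reads, and levels are given as CPM, the reads of a gene scaled to the total of its library and not to gene length. RNA levels were therefore compared for 1 gene at a time. Libraries are named by the number in their title, and values of a group are given in the order of these numbers. The iTreg Ezh2KO libraries were iTreg Ezh2KO.150, iTreg Ezh2KO.153 and iTreg Ezh2KO.165, and the iTreg Ezh2fl/fl libraries iTreg Ezh2fl/fl.154, iTreg Ezh2fl/fl.155 and iTreg Ezh2fl/fl.177. The Th0 Ezh2KO libraries were Th0 Ezh2KO.165, Th0 Ezh2KO.174 and Th0 Ezh2KO.175, and the Th0 Ezh2fl/fl libraries Th0 Ezh2fl/fl.173, Th0 Ezh2fl/fl.176 and Th0 Ezh2fl/fl.177. iTreg Ezh2KO.165 and iTreg Ezh2fl/fl.177 stood apart, at -112 and -105 on the first principal component (44.1% of the variance), against -51.2 to -0.118 for the other iTreg libraries. Both Th0 and iTreg Ezh2KO.165 had 25036 or more reads of Xist and at most 10 of the Y-linked Ddx3y, whereas the other 10 libraries had at most 21 and at least 2114, so sex is not balanced between genotypes. The summed level of 8 CD4 T cell markers was 3451 to 4310 CPM in every library, but single markers differed by genotype. Cd2, Cd4 and Cd5 were lower in Ezh2KO in both cultures (log2 change -1.19, -0.44 and -1.25 in iTreg and -1.99, -0.88 and -1.60 in Th0), and Cd3e and Cd3g were higher in iTreg Ezh2KO (0.45 and 0.73). Foxp3, the defining factor of regulatory T cells, averaged 79.5 CPM in iTreg Ezh2KO and 913 CPM in iTreg Ezh2fl/fl (log2 change -3.52, edgeR adjusted p = 0.000133). Ezh2 reads were lower in every Ezh2KO library than in every Ezh2fl/fl library of its culture, at 48.7 to 123 CPM against 166 to 251 CPM in iTreg and 148 to 169 CPM against 295 to 312 CPM in Th0. These counts cover the whole gene. The log2 change was -1.18 in iTreg (edgeR adjusted p = 0.0235) and -0.99 in Th0 (edgeR adjusted p = 0.0618, and 2.75e-09 without the pair of libraries that stood apart). Fits without that pair leave 2 libraries in each iTreg group. The pair was picked from these same data, so the SE and p of such fits understate the spread.

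The promoters of the maintenance pair are shown because Dnmt1 and Uhrf1 moved together across the 12 libraries. RefSeq lists 12 promoters for the 7 genes in GRCm38.p6 (mm10), each 250 bases before to 50 after a start. They were searched on both strands for 4 words of the E2F family, the factors of S phase entry (TTTCCCGC, TTTCGCGC, TTTGCCGC and TTTGGCGC, whose matches may overlap). Of the 27025 genes with a listed promoter, 2.605% had such a word in at least 1, and 2 of the 7 genes did, Dnmt1 and Uhrf1, in 1 of their promoters each. The words stand in capitals below, on the strand of the gene. All 4 words contain a CpG, and the 2.605% is not matched for CpG content or for the number of promoters per gene. A match describes these letters and is not evidence of a bound factor.
Dnmt1, chr9:20952574-20952873, minus strand: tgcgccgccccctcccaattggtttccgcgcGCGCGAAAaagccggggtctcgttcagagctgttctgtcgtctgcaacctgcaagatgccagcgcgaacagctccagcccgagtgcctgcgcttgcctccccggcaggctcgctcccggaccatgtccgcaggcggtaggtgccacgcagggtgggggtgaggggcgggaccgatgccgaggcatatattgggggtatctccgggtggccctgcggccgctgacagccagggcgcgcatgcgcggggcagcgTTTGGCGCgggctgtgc
Uhrf1, chr17:56304063-56304362, plus strand: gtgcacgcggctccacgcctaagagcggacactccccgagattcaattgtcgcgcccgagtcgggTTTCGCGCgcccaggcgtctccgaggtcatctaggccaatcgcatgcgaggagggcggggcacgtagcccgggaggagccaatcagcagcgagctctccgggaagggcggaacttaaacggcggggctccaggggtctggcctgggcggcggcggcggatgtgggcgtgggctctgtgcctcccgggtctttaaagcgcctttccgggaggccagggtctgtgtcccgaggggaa

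The Dnmt1 promoter held GCGCGAAA, the reverse complement of TTTCGCGC, from base 32 and TTTGGCGC from base 284, counted from the first base printed. The Uhrf1 promoter held TTTCGCGC from base 66. Both promoters were rich in CpG, with 33 CpG each, against a median of 7 over all listed promoters.

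Dnmt1 (chromosome 9, 20907206 to 20959888 in mm10), the maintenance methyltransferase, had 614, 608 and 156 CPM in the iTreg Ezh2KO libraries, and 664, 584 and 369 CPM in the iTreg Ezh2fl/fl libraries. In Th0 it had 769, 768 and 775 CPM in Ezh2KO, and 814, 729 and 816 CPM in Ezh2fl/fl. All 6 iTreg libraries lay below all 6 Th0 libraries, the genotypes overlapped in both cultures, and the lowest values belonged to the pair of libraries that stood apart. Uhrf1 (chromosome 17, 56303321 to 56323486) had 329.7, 337 and 29.8 CPM in the iTreg Ezh2KO libraries, and 370.3, 322 and 144 CPM in the iTreg Ezh2fl/fl libraries. In Th0 it had 478, 479.9 and 479 CPM in Ezh2KO and 541, 512 and 552 CPM in Ezh2fl/fl. Its Th0 Ezh2KO values lay within 2 CPM of each other and below every Th0 Ezh2fl/fl value.

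In iTreg Ezh2KO.165 the level of Uhrf1 was 11.2-fold lower than the mean of the other 2 iTreg Ezh2KO libraries, and that of Dnmt1 3.92-fold lower. In iTreg Ezh2fl/fl.177 the levels of Uhrf1 and Dnmt1 were 2.41-fold and 1.69-fold lower than the mean of the other 2 iTreg Ezh2fl/fl libraries. The same libraries were lowest in a list of 26 S phase and proliferation genes, with summed levels of 1794 CPM in iTreg Ezh2KO.165 and 6041 CPM in iTreg Ezh2fl/fl.177. The other iTreg libraries had 8162 and 8410 CPM in Ezh2KO and 8593 and 9426 CPM in Ezh2fl/fl, and the Th0 libraries 9943 to 10098 CPM in Ezh2KO and 10194 to 10742 CPM in Ezh2fl/fl. Single genes could differ from the sum, as Mki67 had 1211 to 1778 CPM in iTreg Ezh2fl/fl and 1044 to 1169 CPM in Th0 Ezh2fl/fl. Between cultures edgeR called 0 of the 26 in either genotype in the fit of 12 libraries, against 31.4% of all tested genes in Ezh2fl/fl and 25.4% in Ezh2KO. The absence of calls does not mean equal levels. The median log2 change of the list, iTreg minus Th0, was -0.72 in Ezh2fl/fl and -0.85 in Ezh2KO, beside 0.06 and 0.04 over all tested genes. In bulk samples, fewer cycling cells and less RNA of these genes per cell cannot be told apart. The part of the proliferation genes in the results on Dnmt1 and Uhrf1 was not tested.

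**Figure D1:**
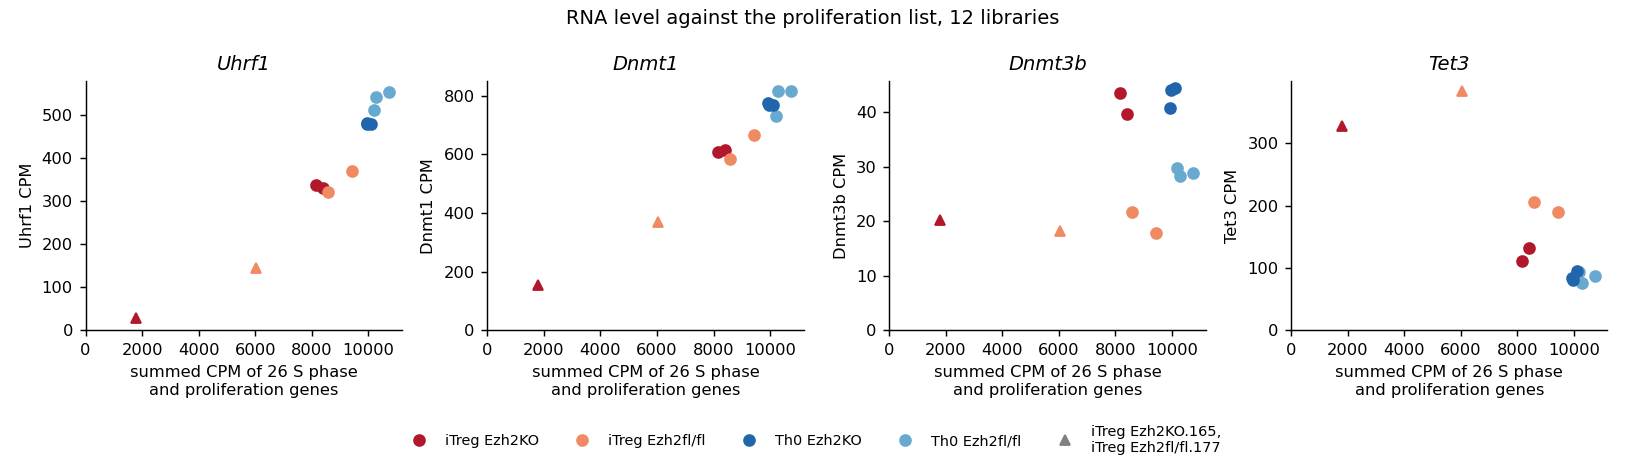
RNA level of Uhrf1, Dnmt1, Dnmt3b and Tet3 (CPM, vertical axes) against the summed level of 26 S phase and proliferation genes (CPM, horizontal axes), 1 point per RNA library, with triangles for iTreg Ezh2KO.165 and iTreg Ezh2fl/fl.177. Uhrf1 and Dnmt1 line up with the list down to 29.8 and 156 CPM in iTreg Ezh2KO.165, Dnmt3b is lower in Ezh2fl/fl than in Ezh2KO except for iTreg Ezh2KO.165, and Tet3 is highest in the pair of triangles.

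The de novo enzymes differed from each other. Dnmt3a (chromosome 12, 3806007 to 3914443) had 89.9, 86.4 and 69.4 CPM in the iTreg Ezh2KO libraries, and 85.5, 86.8 and 76.9 CPM in the iTreg Ezh2fl/fl libraries. In Th0 it had 109.9, 100.3 and 103 CPM in Ezh2KO, and 109, 111 and 114 CPM in Ezh2fl/fl. It separated the cultures and not the genotypes, with every iTreg library below every Th0 library. Its interval shares 2952 bases with the predicted gene Gm10485 (2.72% of its length).

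Dnmt3b (chromosome 2, 153649450 to 153687730) had 39.6, 43.6 and 20.3 CPM in the iTreg Ezh2KO libraries, and 17.9, 21.7 and 18.2 CPM in the iTreg Ezh2fl/fl libraries. The Th0 Ezh2KO libraries had 44.3, 44.0 and 40.7 CPM, and the Th0 Ezh2fl/fl libraries had 28.3, 29.8 and 28.8 CPM. In Th0 all 3 Ezh2KO values lay above all 3 Ezh2fl/fl values. In iTreg 2 of the 3 did, while Ezh2KO.165 lay within the Ezh2fl/fl range. Its promoter is printed because Dnmt3b was the member called between genotypes in iTreg in the fit of 12 libraries. The window held 30 CpG, shown in capitals, and none of the 4 E2F words.
Dnmt3b, chr2:153649199-153649498, plus strand: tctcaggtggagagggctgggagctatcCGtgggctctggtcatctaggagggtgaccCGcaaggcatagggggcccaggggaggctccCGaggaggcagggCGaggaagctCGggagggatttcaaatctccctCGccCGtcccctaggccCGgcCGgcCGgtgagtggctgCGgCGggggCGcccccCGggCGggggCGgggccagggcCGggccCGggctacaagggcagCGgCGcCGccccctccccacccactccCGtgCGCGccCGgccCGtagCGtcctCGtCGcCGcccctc

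Tet1 had the fewest RNA reads of the 7 members (65 to 249 per library). Tet1 (chromosome 10, 62804570 to 62899118) had 5.0, 3.04 and 9.45 CPM in the iTreg Ezh2KO libraries, and 3.27, 2.65 and 4.35 CPM in the iTreg Ezh2fl/fl libraries. The Th0 Ezh2KO libraries had 5.95, 5.87 and 6.19 CPM, and the Th0 Ezh2fl/fl libraries had 8.58, 8.23 and 9.51 CPM. All Th0 Ezh2KO values lay below all Th0 Ezh2fl/fl values, whereas in iTreg the genotypes overlapped. Its promoter is shown because Tet1 was the member in which H3K27me3 moved opposite to the others. The listed window lies within the Tet1 interval and does not reach its end at 62899118, the 5' end on the minus strand. It held 17 CpG, in capitals, and none of the E2F words.
Tet1, chr10:62887275-62887574, minus strand: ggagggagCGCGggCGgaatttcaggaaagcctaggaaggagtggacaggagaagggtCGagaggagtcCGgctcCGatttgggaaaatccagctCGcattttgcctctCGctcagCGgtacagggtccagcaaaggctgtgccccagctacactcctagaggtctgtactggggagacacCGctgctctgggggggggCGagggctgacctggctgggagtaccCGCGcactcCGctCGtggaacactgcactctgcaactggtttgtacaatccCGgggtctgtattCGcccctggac

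Tet2 (chromosome 3, 133463679 to 133544390) had 43.7, 39.4 and 43.2 CPM in the iTreg Ezh2KO libraries, and 54.6, 48.6 and 44.1 CPM in the iTreg Ezh2fl/fl libraries. In Th0 it had 24.6, 20.1 and 21.9 CPM in Ezh2KO, and 25.7, 23.8 and 25.1 CPM in Ezh2fl/fl. Every iTreg library lay above every Th0 library, and the libraries that stood apart lay within the range of the other iTreg libraries. Tet3 (chromosome 6, 83362373 to 83441678) had 132, 111 and 327 CPM in the iTreg Ezh2KO libraries, and 189, 205 and 384 CPM in the iTreg Ezh2fl/fl libraries. Th0 levels were 94.8, 80.3 and 84.0 CPM in Ezh2KO and 75.4, 94.1 and 86.7 CPM in Ezh2fl/fl. iTreg Ezh2KO.165 was 2.69-fold above the mean of the other 2 iTreg Ezh2KO libraries, and iTreg Ezh2fl/fl.177 was 1.95-fold above its own.

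**Figure D2:**
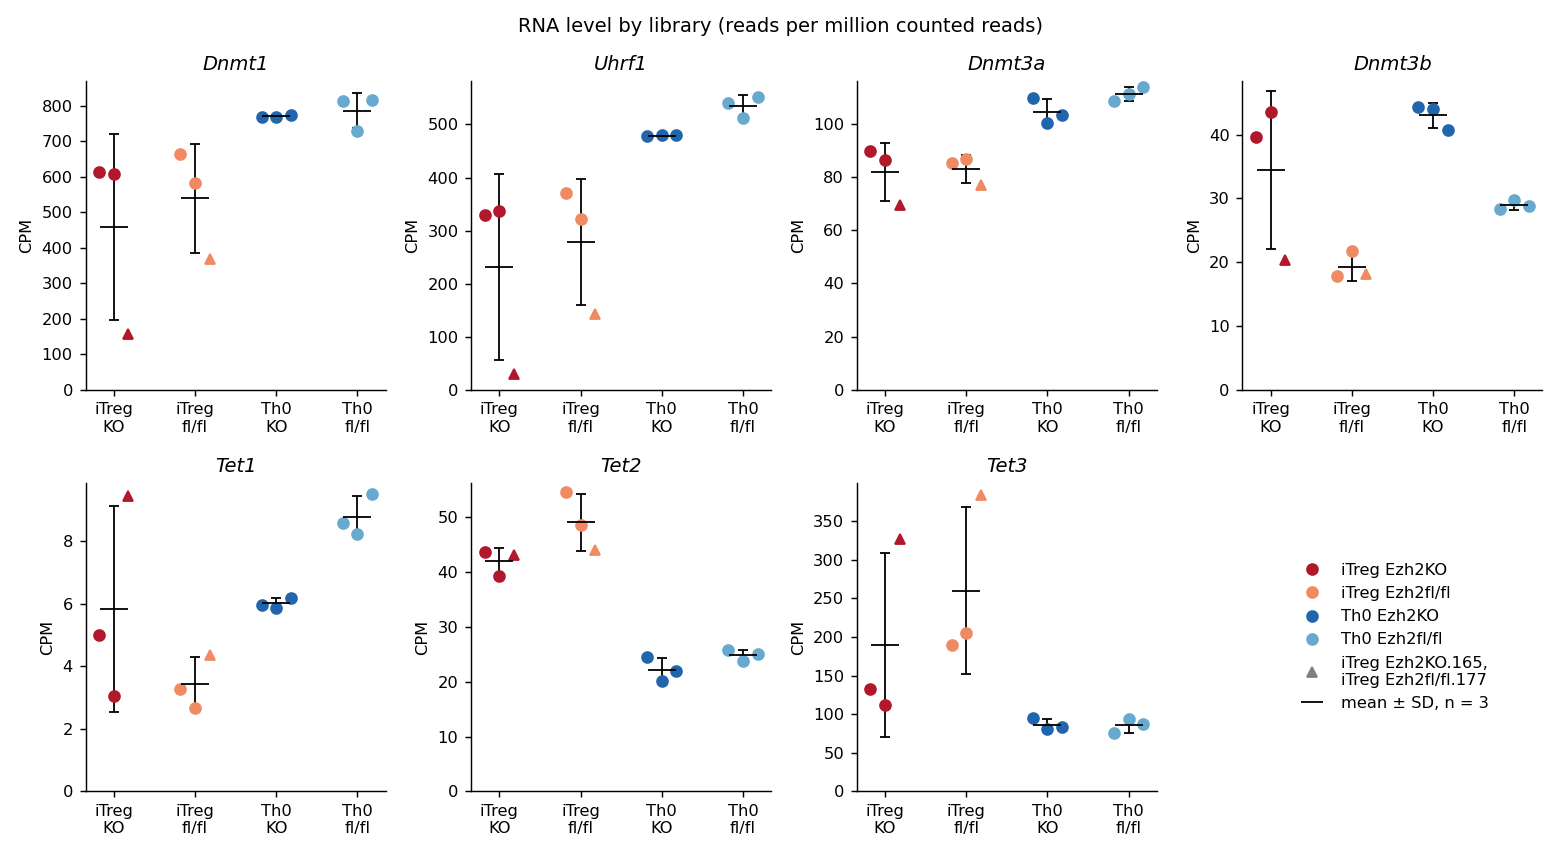
RNA level of each member (CPM, vertical axes, each from 0) in 3 libraries per group, with bars for the mean ± SD and triangles for iTreg Ezh2KO.165 and iTreg Ezh2fl/fl.177. Dnmt3b is 40.7 to 44.3 CPM in Th0 Ezh2KO against 28.3 to 29.8 CPM in Th0 Ezh2fl/fl, Tet2 is 39.4 to 54.6 CPM in iTreg against 20.1 to 25.7 CPM in Th0, and the triangles are lowest in their group for Dnmt1 and Uhrf1 and highest for Tet1 and Tet3.

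The order of the group means was not the same for every member. Dnmt1 averaged 459 ± 263 CPM in iTreg Ezh2KO, 539 ± 152.9 CPM in iTreg Ezh2fl/fl, 770.4 ± 3.67 CPM in Th0 Ezh2KO and 787 ± 49.5 CPM in Th0 Ezh2fl/fl (SD, n = 3 each here and below). The genotypes overlapped within each culture and the cultures did not, and the same held for Dnmt3a. Uhrf1 had the same order, with 232 ± 175.3, 279 ± 119, 479 ± 0.923 and 535 ± 20.8 CPM in iTreg Ezh2KO, iTreg Ezh2fl/fl, Th0 Ezh2KO and Th0 Ezh2fl/fl, and the Th0 genotypes did not overlap. Dnmt3b was highest in Th0 Ezh2KO (43.0 ± 2.01 CPM), then iTreg Ezh2KO (34.5 ± 12.4 CPM) and Th0 Ezh2fl/fl (29.0 ± 0.762 CPM), each overlapping the next, and lowest in iTreg Ezh2fl/fl (19.2 ± 2.13 CPM), which did not overlap Th0 Ezh2fl/fl. Tet1 ran from iTreg Ezh2fl/fl (3.43 ± 0.860 CPM) through iTreg Ezh2KO (5.83 ± 3.28 CPM) and Th0 Ezh2KO (6.0 ± 0.166 CPM), which overlapped as neighbours, to Th0 Ezh2fl/fl (8.77 ± 0.661 CPM), which did not overlap Th0 Ezh2KO. Tet2 averaged 42.1 ± 2.36 CPM in iTreg Ezh2KO and 49.1 ± 5.26 CPM in iTreg Ezh2fl/fl, which did not overlap, and 22.2 ± 2.25 CPM in Th0 Ezh2KO and 24.9 ± 1.01 CPM in Th0 Ezh2fl/fl, which did. Tet3 averaged 190.2 ± 119 CPM in iTreg Ezh2KO, 259.5 ± 108 CPM in iTreg Ezh2fl/fl, 86.4 ± 7.54 CPM in Th0 Ezh2KO and 85.4 ± 9.40 CPM in Th0 Ezh2fl/fl, with overlap within each culture and none between cultures.

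Between Ezh2KO and Ezh2fl/fl Th0 cells none of the 7 genes passed an adjusted p of 0.05 in the fit of all 12 libraries (edgeR quasi-likelihood test, Benjamini-Hochberg over 12845 genes), where 12% of all tested genes were called (8.74% higher and 3.22% lower). At an unadjusted p under 0.05 there was 1, Dnmt3b. DESeq2 called 0 members, against 16% of its tested genes, and limma voom called 0, against 11.4%. Dnmt3b had the largest positive difference, a log2 change of 0.54 (SE 0.231, edgeR adjusted p = 0.193), and Tet1 the largest negative one, at -0.58 (SE 0.341, edgeR adjusted p = 0.375). The log2 changes of Tet2, Uhrf1, Dnmt3a, Dnmt1 and Tet3 were -0.20, -0.19, -0.13, -0.06 and -0.02. The groups did not overlap for 3 of the 7, Dnmt3b (higher) and Uhrf1 and Tet1 (lower), against 59.2% of all tested genes (33.2% higher and 26% lower).

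The spread in that fit includes the iTreg libraries. With the 6 Th0 libraries alone, edgeR called 4 members, against 52.1% of all tested genes, so the share of members was near that of all genes. Dnmt3b was higher (log2 change 0.54, SE 0.0561, edgeR adjusted p = 1.47e-05). Tet1 was lower (-0.58, SE 0.105, edgeR adjusted p = 0.000897), as were Uhrf1 (-0.19, SE 0.0380, edgeR adjusted p = 0.00172) and Dnmt3a (-0.12, SE 0.0457, edgeR adjusted p = 0.0443). The fit of 10 libraries without iTreg Ezh2KO.165 and iTreg Ezh2fl/fl.177 called the same 4 and Tet2 (-0.20, edgeR adjusted p = 0.0481), against 51.6% of all tested genes. Summed levels of 10 B cell markers were 256 to 583 CPM in Th0 Ezh2KO and 84.5 to 139 CPM in Th0 Ezh2fl/fl, with no marker at 0, and all 10 were higher in Ezh2KO (edgeR). Those of 6 NK cell markers were 283 to 463 CPM in Th0 Ezh2KO and 32.7 to 35.9 CPM in Th0 Ezh2fl/fl. Nkg7 alone averaged 365 CPM in Th0 Ezh2KO and 30.6 CPM in Th0 Ezh2fl/fl. Klra8 was at 0 in all 6 Th0 libraries, Ncr1 in Th0 Ezh2fl/fl.173 and Th0 Ezh2fl/fl.176, and Klrb1c in Th0 Ezh2fl/fl.173 and Th0 Ezh2fl/fl.177. Summed levels of 6 regulatory T cell markers were 605 to 963 CPM in Th0 Ezh2KO and 2883 to 2976 CPM in Th0 Ezh2fl/fl, and 3 of the 6 were lower in Ezh2KO, Foxp3, Ctla4 and Il2ra. Il2ra made up most of these sums, at 719 CPM on average in Th0 Ezh2KO and 2577 CPM in Th0 Ezh2fl/fl. Ikzf2 (log2 change -1.03), Ikzf4 (-0.06) and Nrp1 (0.48) were not called. The part of these markers in the differences was not tested.

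In iTreg cultures Dnmt3b rose in Ezh2KO, with a log2 change of 0.85 (SE 0.232, edgeR adjusted p = 0.0321, higher in 2 of 3 libraries than every Ezh2fl/fl library). It was the 1 member of 7 that passed, against 16.7% of all tested genes (9.45% higher and 7.26% lower). The call was lost (edgeR adjusted p = 0.0532 to 0.114) when any 1 library other than iTreg Ezh2KO.165 was left out, in the 6 iTreg libraries alone (edgeR adjusted p = 0.238), and with limma voom without and with a replicate block (adjusted p = 0.0569 and 0.0567). The log2 change was 0.64 without iTreg Ezh2KO.153 and 1.11 without iTreg Ezh2KO.165 (edgeR adjusted p = 2.75e-05), and 1.12 without both Ezh2KO.165 libraries (edgeR adjusted p = 9.57e-05). Tet1, Tet2, Tet3, Dnmt1, Uhrf1 and Dnmt3a had log2 changes of 0.77, -0.22, -0.44, -0.23, -0.26 and -0.02 with edgeR adjusted p of 0.183 to 0.958, and Tet1 passed without iTreg Ezh2KO.153 (edgeR adjusted p = 0.0335). Tet3 passed without iTreg Ezh2KO.165, at -1.09 (edgeR adjusted p = 0.0105), and was -0.06 without iTreg Ezh2fl/fl.177 (edgeR adjusted p = 0.958). Tet2 was the member whose groups did not overlap, against 25.5% of all tested genes (12.7% higher and 12.8% lower).

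Without the pair of libraries that stood apart, 3 members passed in iTreg, against 57.1% of all tested genes. This fit has 2 libraries per iTreg group. The pair was left out after it stood apart in these same data, so the SE and p below understate the spread. For Dnmt3b the SE was 0.232 in the fit of 12 libraries. Dnmt3b was higher (log2 change 1.07, SE 0.0905, edgeR adjusted p = 3.36e-07), and Tet3 (-0.70, SE 0.117, edgeR adjusted p = 0.000618) and Tet2 (-0.32, SE 0.0903, edgeR adjusted p = 0.00867) were lower. Dnmt1 and Uhrf1 passed in neither of these iTreg fits. Beside these values, the 10 B cell markers summed to 39.3 to 80.0 CPM in iTreg Ezh2KO and 31.1 to 33.1 CPM in iTreg Ezh2fl/fl, with Pax5 at 0 in Ezh2KO.153, and 1 of the 10 was higher and 5 were lower in Ezh2KO. The 6 NK cell markers summed to 136 to 450 CPM in iTreg Ezh2KO and 35.1 to 54.6 CPM in iTreg Ezh2fl/fl, with Klra8 and Ncr1 at 0 in all 6 iTreg libraries and Klrb1c in iTreg Ezh2fl/fl.177. The 2 CD8 T cell markers summed to 39.6 to 138 CPM in iTreg Ezh2KO and 18 to 26.7 CPM in iTreg Ezh2fl/fl. The 6 regulatory T cell markers summed to 1221 to 1679.8 CPM in iTreg Ezh2KO and 3979.7 to 5674 CPM in iTreg Ezh2fl/fl, and 4 of the 6 were lower in Ezh2KO, Foxp3, Nrp1, Ikzf4 and Il2ra. Il2ra made up most of these sums, at 943 CPM on average in iTreg Ezh2KO and 3260 CPM in iTreg Ezh2fl/fl. Ctla4 (log2 change -0.42) and Ikzf2 (0.29) were not called. The part of these markers was not tested.

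The genotype effect itself was compared between cultures as an interaction, iTreg minus Th0. None of the 7 members passed in the 12 libraries (edgeR), against 4.49% of all tested genes (1.63% higher and 2.86% lower). At an unadjusted p under 0.05 there was 1, Tet1 (interaction 1.35, SE 0.487, edgeR adjusted p = 0.184). DESeq2 called 0 members, against 8.34% of its tested genes, and limma voom called 0, against 4.31%. Without the pair of libraries that stood apart 3 passed, Tet1 (1.02, edgeR adjusted p = 0.00690), Dnmt3b (0.54, edgeR adjusted p = 0.00227) and Tet3 (-0.68, edgeR adjusted p = 0.00582), against 41.2% of all tested genes.

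**Figure D3:**
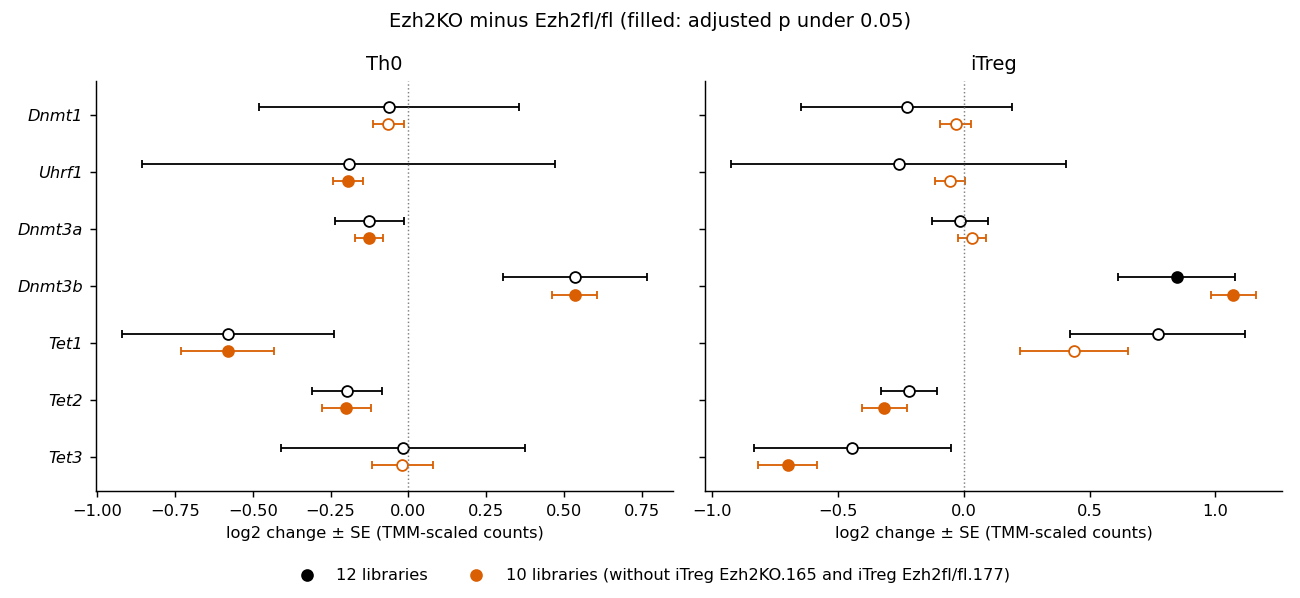
Log2 change of each member, Ezh2KO minus Ezh2fl/fl, with its SE (horizontal axes, edgeR on TMM-scaled counts, differing in range between panels) in Th0 (left) and iTreg (right), from 12 libraries (black) and from 10 without iTreg Ezh2KO.165 and iTreg Ezh2fl/fl.177 (orange), filled where the adjusted p was under 0.05. Dnmt3b lies to the right of 0 in both cultures (0.54 and 0.85), and the SE of every member is smaller in the fit of 10 libraries.

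iTreg cultures had more Tet2 and Tet3 and less Dnmt3a and Tet1 than Th0 cultures of Ezh2fl/fl cells. These 4 of 7 passed, against 31.4% of all tested genes (19.9% higher and 11.5% lower). The log2 changes were 0.91 for Tet2 (SE 0.112, edgeR adjusted p = 0.000487), 1.53 for Tet3 (SE 0.401, edgeR adjusted p = 0.0186), -0.49 for Dnmt3a (SE 0.110, edgeR adjusted p = 0.00999) and -1.42 for Tet1 (SE 0.349, edgeR adjusted p = 0.0143). Dnmt3b (-0.66, edgeR adjusted p = 0.0538), Uhrf1 (-1.01, edgeR adjusted p = 0.249) and Dnmt1 (-0.61, edgeR adjusted p = 0.262) did not pass. Dnmt3b passed in DESeq2 (adjusted p = 0.0224) and with median-of-ratios factors (edgeR adjusted p = 0.0480), which gave 5 of 7, against 38.4% and 31.5% of their tested genes. All 7 had groups that did not overlap, as did 69.0% of all tested genes (39.4% higher and 29.5% lower). All 7 passed in the 6 Ezh2fl/fl libraries alone (53.4% of all tested genes) and without the pair that stood apart (66.8%).

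The Tet3 value rested partly on iTreg Ezh2fl/fl.177. Without it the log2 change was no longer called (edgeR adjusted p = 0.0704), nor was it without Th0 Ezh2fl/fl.173, Th0 Ezh2fl/fl.176 or Th0 Ezh2fl/fl.177 (edgeR adjusted p = 0.0547 to 0.0684), and without both libraries that stood apart it was 1.14 (SE 0.105, edgeR adjusted p = 5.55e-06). Tet1 lost its call without iTreg Ezh2fl/fl.155 (edgeR adjusted p = 0.0503).

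In Ezh2KO cells the culture difference passed for Tet2 (log2 change 0.89, SE 0.112, edgeR adjusted p = 0.00104) and Dnmt3a (-0.38, SE 0.110, edgeR adjusted p = 0.0334), 2 of 7, against 25.4% of all tested genes (16.6% higher and 8.75% lower). Tet3 had 1.11 (SE 0.397, edgeR adjusted p = 0.0637) and passed in DESeq2 (adjusted p = 0.0264), which called 3 of 7, against 34.7% of its tested genes. Tet1, at -0.07, overlapped between the cultures. Groups did not overlap for 5 members (Tet2 and Tet3 higher, Dnmt1, Dnmt3a and Uhrf1 lower), against 58.3% of all tested genes (30.6% higher and 27.7% lower). Without the pair that stood apart 6 passed, against 57.6%, the exception being Dnmt3b (-0.08). In that fit Tet3 had 0.46 (edgeR adjusted p = 0.00413) and Tet1 -0.61 (edgeR adjusted p = 0.0115). In the 6 Ezh2KO libraries alone only Tet2 passed (edgeR adjusted p = 0.0279), against 4.78% of all tested genes. The Dnmt3a call was lost without any 1 Th0 library (edgeR adjusted p = 0.0549 to 0.111). The culture comparisons use the same libraries as the genotype comparisons.

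Markers of other cells differed between cultures too. In Ezh2KO all 10 B cell markers were lower in iTreg than in Th0 (39.3 to 80.0 CPM in iTreg and 256 to 583 CPM in Th0 as sums), both CD8 T cell markers were higher, and so were 4 of 6 regulatory T cell markers (Foxp3 by 4.31 on the log2 scale) and 2 of the 4 NK cell markers tested. In Ezh2fl/fl 6 of 10 B cell markers were lower in iTreg (31.1 to 33.1 CPM in iTreg and 84.5 to 139 CPM in Th0 as sums), and 4 of 6 regulatory T cell markers (Foxp3 by 5.38), 1 of 2 CD8 T cell markers and 2 of the 4 NK cell markers tested were higher. Their part in the culture differences of the members was not tested.

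**Figure D4:**
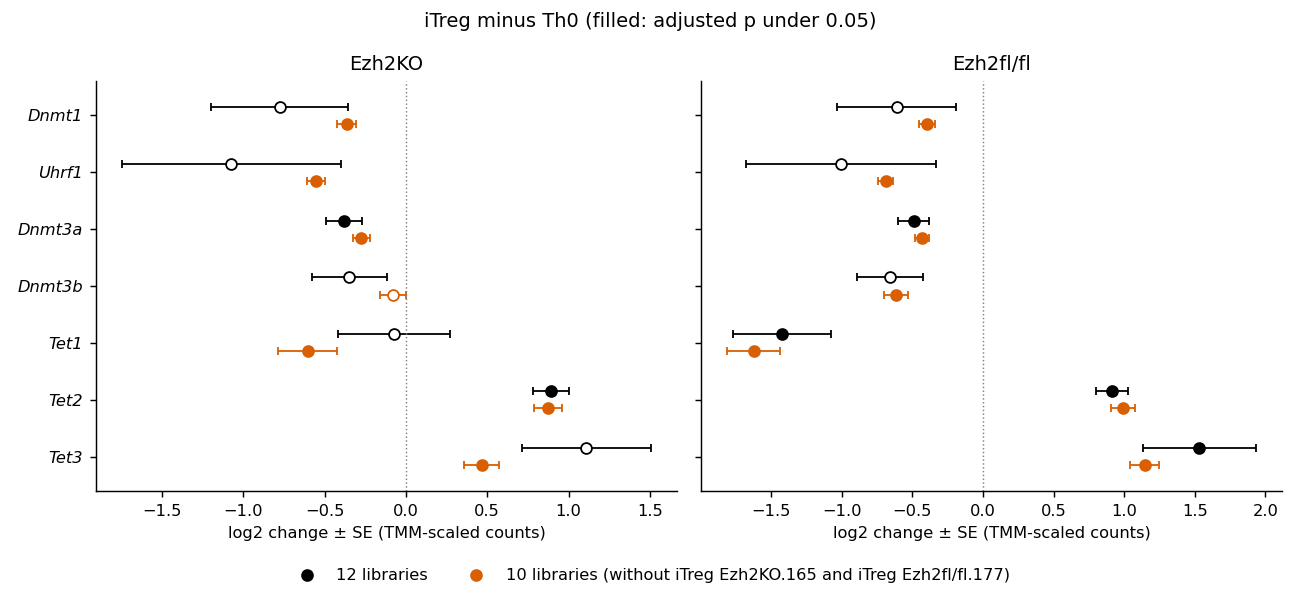
Log2 change of each member, iTreg minus Th0, with its SE (horizontal axes, edgeR on TMM-scaled counts, differing in range between panels) in Ezh2KO (left) and Ezh2fl/fl (right), from 12 libraries (black) and from 10 without iTreg Ezh2KO.165 and iTreg Ezh2fl/fl.177 (orange), filled where the adjusted p was under 0.05. Tet2 (0.89 and 0.91) and Tet3 (1.11 and 1.53) lie to the right of 0 and the other members to the left.

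H3K27me3 was measured in Th0 cells as reads over the whole gene interval, with 11124172 to 15103496 counted reads per library. It is given as CPM per kb of interval, so it compares between genes, and no input library or spike-in was used here. Since each library is scaled to its own total, a difference is relative to that total and does not give the absolute amount of the mark.

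In Ezh2KO cells 6 members had a higher share of the H3K27me3 reads than in Ezh2fl/fl cells, and Tet1 a lower one. Tet1 had 0.992 and 0.804 CPM per kb in Ezh2KO.10 and 9 (1417 and 846 reads), against 1.16 and 1.20 CPM per kb in Ezh2fl/fl.33 and 7 (1223 and 1410 reads). It was the most densely marked member in both Ezh2fl/fl libraries, at percentiles 67.3 and 66.3 of all intervals, and lay at percentiles 53.8 and 30.1 in the Ezh2KO libraries. Dnmt3b had 1.08 and 0.906 CPM per kb in Ezh2KO against 0.669 and 0.483 CPM per kb in Ezh2fl/fl. Dnmt3a had 0.841 and 0.721 CPM per kb in Ezh2KO against 0.387 and 0.310 CPM per kb in Ezh2fl/fl. Both lay below Tet1 in the Ezh2fl/fl libraries, while in the Ezh2KO libraries Dnmt3b lay above it and Dnmt3a below.

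The remaining members were also denser in Ezh2KO. Dnmt1 had 0.920 and 0.897 CPM per kb in Ezh2KO against 0.537 and 0.389 CPM per kb in Ezh2fl/fl. Uhrf1 had 0.969 and 0.846 CPM per kb in Ezh2KO against 0.495 and 0.339 CPM per kb in Ezh2fl/fl. Tet2 and Tet3 had 0.754 to 0.955 CPM per kb in Ezh2KO and 0.270 to 0.588 CPM per kb in Ezh2fl/fl. The 7 densities drew together, the highest being 1.29 and 1.26 times the lowest in the Ezh2KO libraries, against 3.00 and 4.45 times in the Ezh2fl/fl libraries. All gene intervals did so too, with 10th to 90th percentiles of 0.600 to 1.28 and 0.542 to 1.37 CPM per kb in Ezh2KO and 0.295 to 2.08 and 0.220 to 2.26 CPM per kb in Ezh2fl/fl.

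**Figure D5:**
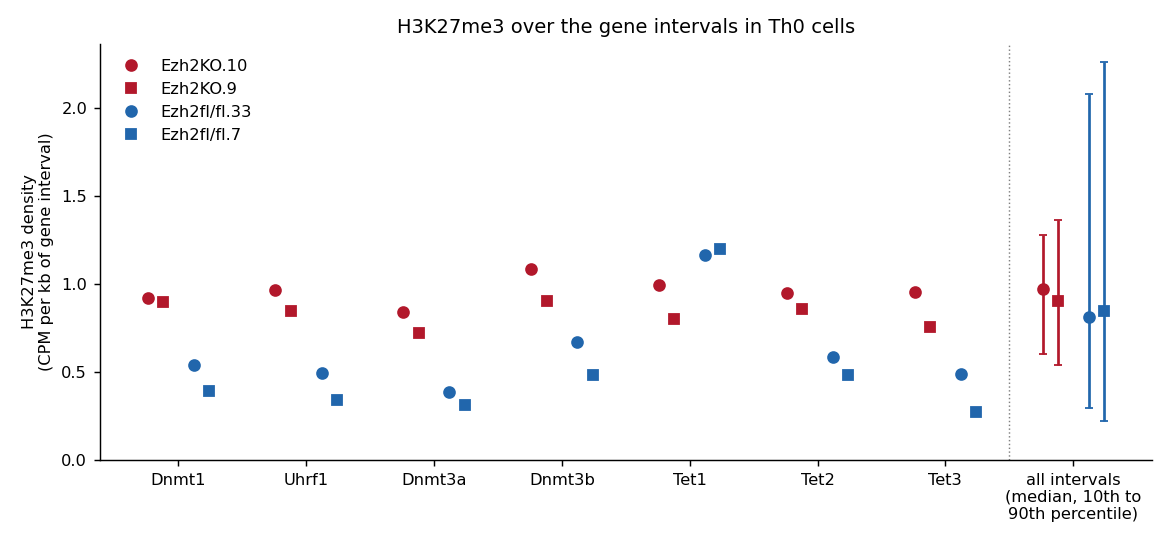
H3K27me3 density (CPM per kb of gene interval, vertical axis) of each member in 2 Ezh2KO and 2 Ezh2fl/fl Th0 libraries, and on the right the median with the 10th to 90th percentile of all 22269 intervals in each library. The members lie between 0.721 and 1.08 CPM per kb in Ezh2KO and between 0.270 and 1.20 CPM per kb in Ezh2fl/fl, where Tet1 is highest.

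All 7 members passed the test of H3K27me3 (edgeR on library-size scaled counts, 20376 intervals), against 52.9% of all tested intervals (32.2% higher and 20.6% lower). The densities of the genotypes did not overlap for any of the 7, as for 79.7% of all tested intervals (48.1% higher and 31.6% lower). The 6 that were higher had log2 changes of 0.75 (Tet2) to 1.18 (Tet3), with Dnmt3a at 1.16 (SE 0.185, edgeR adjusted p = 0.000720) and Dnmt3b at 0.79 (SE 0.229, edgeR adjusted p = 0.0131). Tet1 had -0.39 (SE 0.152, edgeR adjusted p = 0.0454). The median over the members was 0.97, beside 0.21 over all tested intervals. With TMM scaling the log2 changes moved down, to 0.53 to 0.95 for the 6 and -0.63 for Tet1, and all 7 still passed, against 52.3% of all tested intervals (24.3% higher and 28.0% lower). The calls of members and of other intervals were lost without either Ezh2KO library, a fit in which the lone library is assumed to vary like the Ezh2fl/fl pair. Leaving out 1 ChIP library at a time, the log2 changes kept their sign. They ran from 0.58 (Dnmt3b) to 1.67 (Tet3) for the 6, and from -0.56 to -0.25 for Tet1.

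Across the 12 RNA libraries Dnmt1 and Uhrf1 had the most alike profiles among the members (Pearson r of log2 CPM 0.998). The genes most like Uhrf1 of 9821 ranked were Lig1 (0.999), the DNA ligase of replication, Rrm1 (0.999), a ribonucleotide reductase subunit, and Tex30 (0.998), and those most like Dnmt1 were Lig1 (0.998), Tubg1 (0.997) and Hirip3 (0.996). These libraries share the 4 groups and the pair that stands apart, and each r is a description of them. Dnmt3b was most like Ap3s1 (0.994), Slc39a7 (0.981) and Glmn (0.980), and its r with Dnmt1 was 0.547 and with Dnmt3a 0.576. Dnmt3a was most like Srp9 (0.994), Actr3 (0.988) and Isg20l2 (0.987). Tet3 was most like Fam69a (0.994), Phldb3 (0.990) and Ankrd50 (0.989), Tet2 like Lcorl (0.977), Mxi1 (0.975) and Necap1 (0.972), and Tet1 like Dlg3 (0.980), Ebpl (0.919) and Casp1 (0.917). Tet2 and Tet3 had an r of 0.784 with each other, and Tet3 had -0.834 with Dnmt1.

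The other genes of the pathway were taken as 4 lists. Of the 14 partners and cofactors of the methyltransferases, 12 were tested. By genotype edgeR called none of them, against 12% of all tested genes in Th0 and 16.7% in iTreg. Their median log2 change was -0.14 in Th0, beside a median within 0.01 of 0 over all tested genes, and -0.16 in iTreg, beside 0.01. Dnmt3l, the cofactor of the de novo enzymes, had at most 0.0826 CPM in any library and was not tested. Between cultures Uhrf2, the Uhrf1 paralog, was higher in iTreg (log2 change 0.57 in Ezh2KO and 0.55 in Ezh2fl/fl), and Trdmt1, a tRNA methyltransferase once named Dnmt2, was lower (-0.91 and -0.65). These were the only 2 of the 12 called in either genotype. The shares called between cultures over all tested genes were 25.4% in Ezh2KO and 31.4% in Ezh2fl/fl, here and for the lists below.

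Among the 8 readers of methylated CpG, Mbd2 fell in Ezh2KO in both cultures. It had 188 to 200.2 CPM in iTreg Ezh2KO against 225 to 274 CPM in iTreg Ezh2fl/fl (log2 change -0.38, edgeR adjusted p = 0.0227) and 210.0 to 214 CPM in Th0 Ezh2KO against 275 to 281 CPM in Th0 Ezh2fl/fl (-0.43, edgeR adjusted p = 0.0167). In iTreg Mbd1 also fell, at 59.1 to 62.0 CPM in Ezh2KO and 87.0 to 96.1 CPM in Ezh2fl/fl (-0.60, edgeR adjusted p = 0.00272), and Zbtb38 rose (0.89, edgeR adjusted p = 0.0251). Thus 1 of 8 passed in Th0, against 12% of all tested genes, and 3 of 8 in iTreg, against 16.7%. Between cultures Zbtb4 (1.90 in Ezh2KO and 1.97 in Ezh2fl/fl) was higher in iTreg in both genotypes, and Mbd1 (0.72) in Ezh2fl/fl. In all, 2 of 8 passed in Ezh2KO and 3 of 8 in Ezh2fl/fl, against 25.4% and 31.4% of all tested genes. Zbtb4 had 154 CPM in iTreg Ezh2KO.165, against 51.1 and 48.5 CPM in the other iTreg Ezh2KO libraries.

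Of the 21 partners of demethylation and base excision repair, 19 were tested, and by genotype 3 passed in Th0, against 12% of all tested genes, and 1 in iTreg, against 16.7%. Idh1, a cytosolic dehydrogenase that makes the Tet cosubstrate 2-oxoglutarate, had 5.31 to 5.55 CPM in Th0 Ezh2KO and 12.6 to 15.8 CPM in Th0 Ezh2fl/fl (log2 change -1.44, edgeR adjusted p = 0.00646). D2hgdh, which turns D-2-hydroxyglutarate into 2-oxoglutarate, was lower too (-0.69), and Smug1, a uracil DNA glycosylase, was higher (0.63). In iTreg Idh2, the mitochondrial counterpart of Idh1, had 56.9, 55.0 and 139 CPM in Ezh2KO and 25.3 to 32.2 CPM in Ezh2fl/fl (1.54, edgeR adjusted p = 0.00775), highest in iTreg Ezh2KO.165. Between cultures Ogt, the O-GlcNAc transferase that binds Tet proteins, was higher in iTreg by 1.28 in Ezh2KO and 1.24 in Ezh2fl/fl. Neil2 and Smug1 were higher as well (1.58 and 0.67 in Ezh2KO, 1.31 and 1.28 in Ezh2fl/fl). Idh1 (1.47) and D2hgdh (0.63) passed as higher in Ezh2KO, and Cxxc5 (1.52) in Ezh2fl/fl, while edgeR called no interaction for any gene of the list. By culture, 5 of the 19 were higher and 1 lower in Ezh2KO, against 25.4% of all tested genes called. In Ezh2fl/fl 4 were higher and 0 lower, against 31.4%. Reads were few for Cxxc5 (23, 25 and 78 in iTreg Ezh2fl/fl, most in iTreg Ezh2fl/fl.177) and Neil2 (8 to 14 per Th0 library). Ogt had 821 CPM in iTreg Ezh2KO.165, against 364 and 335 CPM in the other iTreg Ezh2KO libraries.

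Germline genes that promoter methylation silences in somatic cells had few members with enough reads, and 4 of 22 were tested. Piwil2 rose in Th0 Ezh2KO, at 7.99 to 10.8 CPM against 1.34 to 2.41 CPM in Th0 Ezh2fl/fl (log2 change 2.20, edgeR adjusted p = 0.0285). Brdt rose in iTreg Ezh2KO, at 5.53, 5.15 and 22.9 CPM in Ezh2KO against 0.838 to 3.47 CPM in iTreg Ezh2fl/fl (2.63, edgeR adjusted p = 0.0234), again highest in iTreg Ezh2KO.165. DNA methylation itself was not measured in these samples. Between cultures Piwil2 was lower (-2.94) and Brdt higher (2.27) in iTreg Ezh2KO, and Tuba3a higher (2.84) in iTreg Ezh2fl/fl, where it had at most 0.515 CPM on average. In the proliferation list E2f2, a member of the E2F family, was the 1 gene of 26 called by genotype, lower in Ezh2KO in both cultures (-1.45 in iTreg and -0.89 in Th0). The shares called by genotype over all tested genes were 16.7% in iTreg and 12% in Th0.

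H3K27me3 was counted over the same lists (edgeR). In all, 7 of 14 partners and cofactors were higher and 3 lower in Ezh2KO, 4 of 8 readers were higher, and 11 of 20 tested demethylation partners were higher and 4 lower. Of 21 tested germline genes 5 were lower and none higher, with Tdrd1 at 1.23 and 1.62 CPM per kb in Ezh2KO against 3.48 and 3.91 CPM per kb in Ezh2fl/fl. Of the proliferation genes 25 of 26 were higher. The shares over all tested intervals were 32.2% higher and 20.6% lower. Dnmt3l was lower, as was Tet1, at 0.922 and 0.767 CPM per kb in Ezh2KO against 1.61 and 1.87 CPM per kb in Ezh2fl/fl (log2 change -1.04, edgeR adjusted p = 0.00309).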

How the data were processed

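The submitters' processing notes name Trimmomatic 0.30, TopHat2 2.0.6, Bowtie2 2.1.0, featureCounts 1.4.2 and the build mm10 for the RNA-seq and H3K27me3 ChIP-seq reads. The authors deposited raw read counts per gene (RNA) and per gene interval (ChIP); strand use in counting is not given in the sources used here. The length column of the RNA tables appears to sum isoforms (37348 bases for Dnmt3b, whose interval has 38281), so RNA levels were left as CPM.

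From these counts, edgeR 4.0.16 (R 4.3.3) with TMM, filterByExpr (minimum count 10) and the robust quasi-likelihood F test was run on 12 RNA libraries in 4 groups (12845 genes). ChIP was tested likewise on 4 libraries scaled by library size (20376 intervals). Tests were two-sided, with Benjamini-Hochberg adjustment over all features and a threshold of 0.05; SE is the log2 change over the square root of F. Code was tested on simulated data. DESeq2 1.42.0 and limma 3.58.1 (voom) were alternatives. Besides the members and Ezh2, genes were named as the up to 4 called with the smallest p per list and comparison and the 3 most correlated with each member (mean of at least 5 CPM). Some genes that this rule names are not reported here. Promoters came from RefSeq (GRCm38.p6). Members and lists were chosen with earlier results of these data known. Counts are reads without molecular identifiers.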

Additional observations from a re-analysis of the deposited data

How the results depend on the processing

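The counts of members called moved mainly with the libraries in the fit. Without iTreg Ezh2KO.165 and iTreg Ezh2fl/fl.177 together, 5 members passed for genotype in Th0, 3 in iTreg, 3 as interaction, 7 for culture in Ezh2fl/fl and 6 in Ezh2KO. Without both Ezh2KO.165 libraries these counts were 1, 2, 1, 7 and 1, against 19.7%, 41.6%, 13.9%, 61.7% and 19.3% of all tested genes. Fits of 1 culture or genotype alone gave 4 in Th0, 0 in iTreg, 7 in Ezh2fl/fl and 1 in Ezh2KO, where iTreg alone called 4.34% of all tested genes. limma voom gave 0 for genotype in iTreg, against 16.6% of all tested genes. Fitting without a filter gave 1 for culture in Ezh2KO, against 15.6%. Leaving out 1 library at a time gave 0 to 1, 0 to 2, 0 to 1, 3 to 7 and 1 to 3 in the same order, and 0 to 7 for H3K27me3. The share of all genes called in these fits ran from 6.08% to 27.1%, 10.5% to 44.2%, 2.06% to 19.6%, 15.3% to 62.9% and 8.47% to 32.9%, and that of all intervals from 0% to 61.6%. The cause was not tested.

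The titles share a number between cultures in the Ezh2KO.165 pair and in the Ezh2fl/fl.177 pair. Same-numbered libraries did not deviate together (r = 0.0418 and 0.00387 over 12845 genes). These r include whatever set iTreg Ezh2KO.165 and iTreg Ezh2fl/fl.177 apart, so they cannot decide whether a shared number means a shared mouse. The 2 Ezh2KO.165 libraries were the only ones of the 12 with high Xist (25036 and 27248 reads) and low Ddx3y (4 and 10 reads). With the number as a replicate block (limma voom, consensus correlation -0.00866) 0 members passed for genotype in iTreg, against 16.6% of all tested genes. The count was also 0 in limma voom without the block, and no other count moved.

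No called value changed sign. Of the values that were not called, Tet3 in Th0 by genotype was 0.017 with library size alone and -0.10 to 0.063 leaving out 1 library. In iTreg by genotype, Dnmt3a was 0.032 without the pair that stood apart, 0.091 without both Ezh2KO.165 and -0.088 to 0.089 leaving out 1. Dnmt1 was 0.19 without both Ezh2KO.165 and -0.49 to 0.18 leaving out 1, and Uhrf1 was 0.26 and -0.63 to 0.26. As interaction, Dnmt1 was 0.032 and 0.24 in these 2 fits and -0.43 to 0.25 leaving out 1, Uhrf1 was 0.14, 0.45 and -0.44 to 0.45, and Tet2 was 0.031 without both Ezh2KO.165 and -0.10 to 0.063. Tet1 by culture in Ezh2KO was -0.61 to 0.23 leaving out 1. Tet1 had the fewest RNA reads of the members.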
